A study of Chlorocebus aethiops with 12 samples.

Results

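Metallothioneins are short, cysteine-rich proteins that bind zinc and copper and sequester toxic metals such as cadmium. Their genes are switched on by metals through the transcription factor MTF-1, which binds metal response elements, and several of them, MT2A above all, are also known glucocorticoid-inducible genes. The MT1 and MT2 forms are found in most tissues, kidney included, whereas MT3 is known mainly from the brain. The 10 metallothionein accessions with probes on the array were followed here across the 4 groups of the study: MT1A (NM_005946), MT1B (NM_005947), MT1E (NM_175617), MT1F (NM_005949), MT1G (NM_005950), MT1H (NM_005951), MT1M (NM_176870), MT1X (NM_005952), MT2A (NM_005953) and MT3 (NM_005954). They were chosen by accession from the 32379 accessions on the array. The files name probes by accession only, and the gene symbols of these 10 came with the list of members. All 10 were among the 24586 accessions bright enough to be tested.

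The cells were COS-1, a fibroblast-like line from African green monkey kidney. They were transfected, with the reagent FuGENE6, with the S211A form of the glucocorticoid receptor (GR), which is mutated at a phosphorylation site, with or without MDFIC. All groups carried the S211A receptor, and no cells with wild-type GR or without a transfected receptor were analysed here. The groups were S211A+MDFIC cells given dexamethasone (Dex), a synthetic ligand of GR, S211A+MDFIC cells given vehicle, S211A cells given Dex and S211A cells given vehicle. Dex was used at 100 nM for 6 h, starting 48 h after transfection, in medium with 10% charcoal-stripped serum, from which steroids are depleted. Each group held 3 biological replicates per the labels, 1 array each. The series asks whether MDFIC changes what GR regulates when this site is mutated.

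The 12 arrays were one-colour arrays of human probes, so every value is the signal of monkey RNA on a human sequence. Several metallothionein genes are nearly identical in sequence, so a probe may read more than 1 member, and what cross-hybridisation contributed was not tested. Levels are the log2 signal relative to the 75th percentile of the same array, and they serve to compare arrays for 1 probe, not probes with each other. Probes well above background made up 76.2% to 80.6% of all probes on the 8 arrays of slides 2 and 3, but 67.8% to 71.7% on the 4 arrays of slide 1, which are 1 Dex array (replicate 1) and all 3 vehicle arrays of S211A cells. Within a group, the correlation between 2 arrays, over accessions, lay between 0.986 and 0.996. The 3 arrays per group limit the precision of every comparison. The transfected genes and the identity of the cells could not be checked here, because that needs gene names for accessions outside the family.

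The family had 15 probes, of which 6 members had 1, MT1G, MT1X and MT3 had 2 each, and MT2A had 3. All 15 were well above background on all 12 arrays, and no spot was saturated or marked as an outlier. Signals differed widely in their distance from background. The MT1F spot was 1.9 to 2.72 times its local background over the arrays, and the MT1M spot 2.05 to 3.52 times. By contrast, the first MT1G probe read 546 to 1580 times its local background. The spot of the second MT3 probe was 2.47 to 5.53 times, and that of MT2A probe 3 was 3.84 to 12.3 times, its local background. These 4 probes were dim, and their values carry more error. Where a member had several probes, the one with the highest mean signal stands for it, and is called its first probe.

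The first question is which metallothioneins Dex changed in cells that carry the S211A receptor. Most of the family was higher after Dex in both transfections. In S211A+MDFIC cells 8 of 10 members rose and none fell, against 6.26% of all accessions tested that rose and 918 of 24586 that fell. In S211A cells 7 of 10 rose and none fell, against 4.31% of all accessions that rose and 540 of 24586 that fell. The median change over the 10 members was log2 1.06 in S211A+MDFIC cells, with 0.046 over all accessions. In S211A cells the median of the members was 0.93, with 0.017 over all accessions. A member was called changed at an adjusted p under 0.05 in limma, fitted over all accessions tested with Benjamini-Hochberg adjustment. RNA came from whole cultures, in which a larger share of responding cells and more RNA per cell cannot be told apart.

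**Figure D1:**
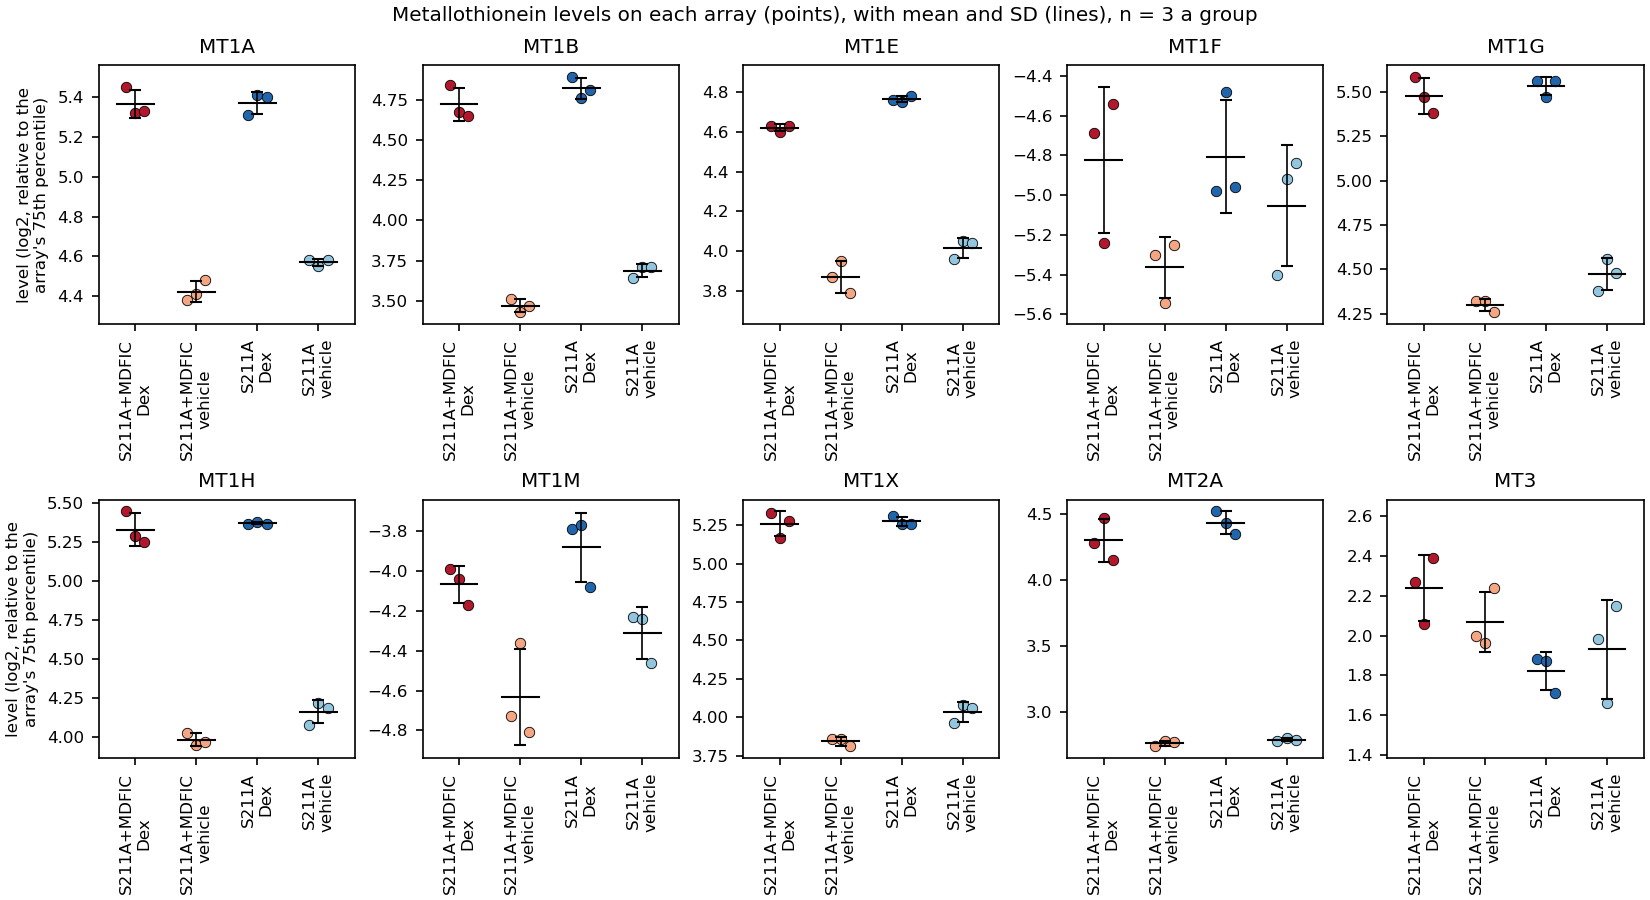
Level of each metallothionein on every array (log2 relative to the array's 75th percentile, first probe of each member), with group means and SD as lines, n = 3 a group. Each panel has its own axis. For MT1A, MT1B, MT1E, MT1G, MT1H, MT1X and MT2A every Dex array lies above every vehicle array of the same transfection, whereas the MT3 points of Dex and vehicle arrays overlap.

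MT2A, the main metallothionein of many human cells, had the largest change of the family in both transfections when members are compared by their first probes over all arrays. In S211A+MDFIC cells the order over MT1X was narrow: the second MT1X probe rose by log2 1.57, against 1.54 for the first MT2A probe, and without S211A+MDFIC Dex replicate 2 the first probes had 1.45 for MT2A and 1.46 for MT1X. The first MT2A probe read 20700, 22300 and 15200 intensity units in S211A+MDFIC cells given Dex, against 7010, 6320 and 7090 units with vehicle. In S211A cells it read 20200, 19600 and 18500 units with Dex, against 5960, 6930 and 6130 units with vehicle. All 6 Dex arrays were above all 6 vehicle arrays. On the scaled log2 level, S211A+MDFIC cells had 4.28, 4.47 and 4.15 with Dex, against 2.74, 2.78 and 2.77 with vehicle. The rise was 2.90-fold (95% interval 2.58 to 3.27, limma adjusted p = 2.51e-06). In S211A cells the levels were 4.52, 4.43 and 4.35 with Dex, against 2.78, 2.80 and 2.79 with vehicle. That rise was 3.12-fold (95% interval 2.77 to 3.52, limma adjusted p = 2e-06). By size of rise MT2A ranked 73 of 24586 accessions in S211A+MDFIC cells and 75 in S211A cells.

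The other 2 probes of MT2A rose by similar amounts. For the second probe the log2 change was 1.55 (SE 0.073) in S211A+MDFIC cells and 1.48 (SE 0.073) in S211A cells. For the third probe, whose signal was between 79.2 and 320 intensity units, it was 1.60 (SE 0.13) in S211A+MDFIC cells and 1.44 (SE 0.13) in S211A cells. All 3 MT2A probes thus passed the test in both transfections when each probe was tested on its own.

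MT1X, a widely expressed MT1 form, came next by first probes. Its levels in S211A+MDFIC cells were 5.33, 5.17 and 5.28 with Dex, against 3.86, 3.86 and 3.81 with vehicle. In S211A cells they were 5.31, 5.26 and 5.26 with Dex, against 3.96, 4.08 and 4.06 with vehicle. The groups lay far apart in both transfections. The log2 rise was 1.41 (SE 0.055, limma adjusted p = 5.41e-07) in S211A+MDFIC cells and 1.24 (SE 0.055, limma adjusted p = 1.49e-06) in S211A cells. Its second probe rose by log2 1.57 (SE 0.062) in S211A+MDFIC cells and 1.50 (SE 0.062) in S211A cells.

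MT1H, another inducible MT1 form, had levels of 5.45, 5.29 and 5.25 in S211A+MDFIC cells given Dex, against 4.03, 3.95 and 3.97 with vehicle. In S211A cells it had 5.37, 5.38 and 5.37 with Dex, against 4.08, 4.22 and 4.19 with vehicle. Again no Dex array reached down to a vehicle array. The rise was 2.55-fold (95% interval 2.31 to 2.81) in S211A+MDFIC cells and 2.31-fold (2.09 to 2.55) in S211A cells. The limma adjusted p-values were 1.73e-06 and, in S211A cells, 3.72e-06.

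MT1B, another metal-binding MT1 form, had levels of 4.84, 4.67 and 4.65 in S211A+MDFIC cells given Dex, against 3.51, 3.43 and 3.47 with vehicle. In S211A cells it had 4.89, 4.76 and 4.81 with Dex, against 3.64, 3.71 and 3.71 with vehicle. The Dex and vehicle arrays did not overlap. Its rise was 2.38-fold (95% interval 2.16 to 2.62, limma adjusted p = 2.37e-06) in S211A+MDFIC cells and 2.20-fold (2.00 to 2.42, limma adjusted p = 4.35e-06) in S211A cells.

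MT1G, an MT1 form inducible by zinc and cadmium, had levels of 5.58, 5.47 and 5.38 in S211A+MDFIC cells given Dex, against 4.32, 4.32 and 4.26 with vehicle. In S211A cells it had 5.56, 5.47 and 5.56 with Dex, against 4.38, 4.56 and 4.48 with vehicle. Both pairs of groups lay apart. The rise was log2 1.18 (SE 0.066, limma adjusted p = 5.33e-06) in S211A+MDFIC cells and 1.05 (SE 0.066, limma adjusted p = 1.04e-05) in S211A cells. Its second probe showed smaller rises, of 0.88 (SE 0.083) in S211A+MDFIC cells and 0.63 (SE 0.083) in S211A cells. The 2 MT1G probes therefore passed in the same direction but differed in size.

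MT1A, a zinc-binding MT1 form, and MT1E, one of the same cluster of genes, rose by less than 2-fold. MT1A levels in S211A+MDFIC cells were 5.45, 5.32 and 5.33 with Dex, against 4.38, 4.41 and 4.48 with vehicle. In S211A cells MT1A had 5.31, 5.41 and 5.40 with Dex, against 4.58, 4.55 and 4.58 with vehicle. All Dex arrays exceeded all vehicle arrays, with rises of 1.93-fold (95% interval 1.78 to 2.09, limma adjusted p = 5.46e-06) in S211A+MDFIC cells and 1.74-fold (1.61 to 1.89, limma adjusted p = 1.69e-05) in S211A cells. MT1E levels in S211A+MDFIC cells were 4.63, 4.60 and 4.63 with Dex, against 3.87, 3.95 and 3.79 with vehicle. In S211A cells MT1E had 4.76, 4.75 and 4.78 with Dex, against 3.96, 4.05 and 4.04 with vehicle. Its groups were also apart, and the rise was 1.68-fold in both transfections (limma adjusted p = 1.71e-05 in S211A+MDFIC cells and 1.95e-05 in S211A cells).

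MT1M, an MT1 form best known from liver, was dim, and its call depended on single arrays. Its levels in S211A+MDFIC cells were -3.99, -4.04 and -4.17 with Dex, against -4.73, -4.36 and -4.81 with vehicle. In S211A cells they were -3.79, -3.77 and -4.08 with Dex, against -4.23, -4.24 and -4.46 with vehicle. The Dex arrays were above the vehicle arrays in both transfections, by a narrow margin. MT1M rose by log2 0.57 (SE 0.13, limma adjusted p = 0.0242) in S211A+MDFIC cells, and the change of 0.43 (SE 0.13) in S211A cells missed the threshold (limma adjusted p = 0.0947). The call in S211A+MDFIC cells was lost without Dex replicate 1 (log2 0.53, adjusted p = 0.0814 in limma), without Dex replicate 3 (0.62, adjusted p = 0.0512), without vehicle replicate 1 (0.52, adjusted p = 0.095) and without vehicle replicate 3 (0.48, adjusted p = 0.0796). In S211A cells the change passed only when S211A+MDFIC vehicle replicate 2, an array of the shared estimate of the spread, was left out (log2 0.43, limma adjusted p = 0.0472) among the arrays left out in turn.

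MT1F, a further MT1 form that binds metals, was the dimmest of the family relative to local background and did not pass in either transfection. Its levels in S211A+MDFIC cells were -4.69, -5.24 and -4.54 with Dex, against -5.30, -5.54 and -5.25 with vehicle. In S211A cells they were -4.98, -4.48 and -4.96 with Dex, against -5.40, -4.92 and -4.84 with vehicle. The groups did not overlap in S211A+MDFIC cells, narrowly, and overlapped in S211A cells. The log2 difference was 0.55 (95% interval 0.06 to 1.03, limma adjusted p = 0.144) in S211A+MDFIC cells and 0.25 (-0.24 to 0.73, limma adjusted p = 0.59) in S211A cells. Without S211A+MDFIC Dex replicate 2 the first of these was 0.75 and passed (limma adjusted p = 0.0356).

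MT3, the metallothionein known from neurons as growth inhibitory factor, did not pass the test for Dex. Its first probe had levels of 2.27, 2.06 and 2.39 in S211A+MDFIC cells given Dex, against 2.00, 1.96 and 2.24 with vehicle. In S211A cells it had 1.88, 1.87 and 1.71 with Dex, against 1.98, 1.66 and 2.15 with vehicle. Dex and vehicle arrays overlapped in both transfections. The log2 difference was 0.17 (95% interval -0.12 to 0.47, limma adjusted p = 0.437) in S211A+MDFIC cells and -0.11 (-0.41 to 0.19, limma adjusted p = 0.711) in S211A cells. The dim second probe differed by 0.70 (95% interval 0.11 to 1.29, limma adjusted p = 0.126) in S211A+MDFIC cells, where its groups did not overlap, and by 0.07 (-0.52 to 0.66, limma adjusted p = 0.921) in S211A cells, where they did.

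**Figure D2:**
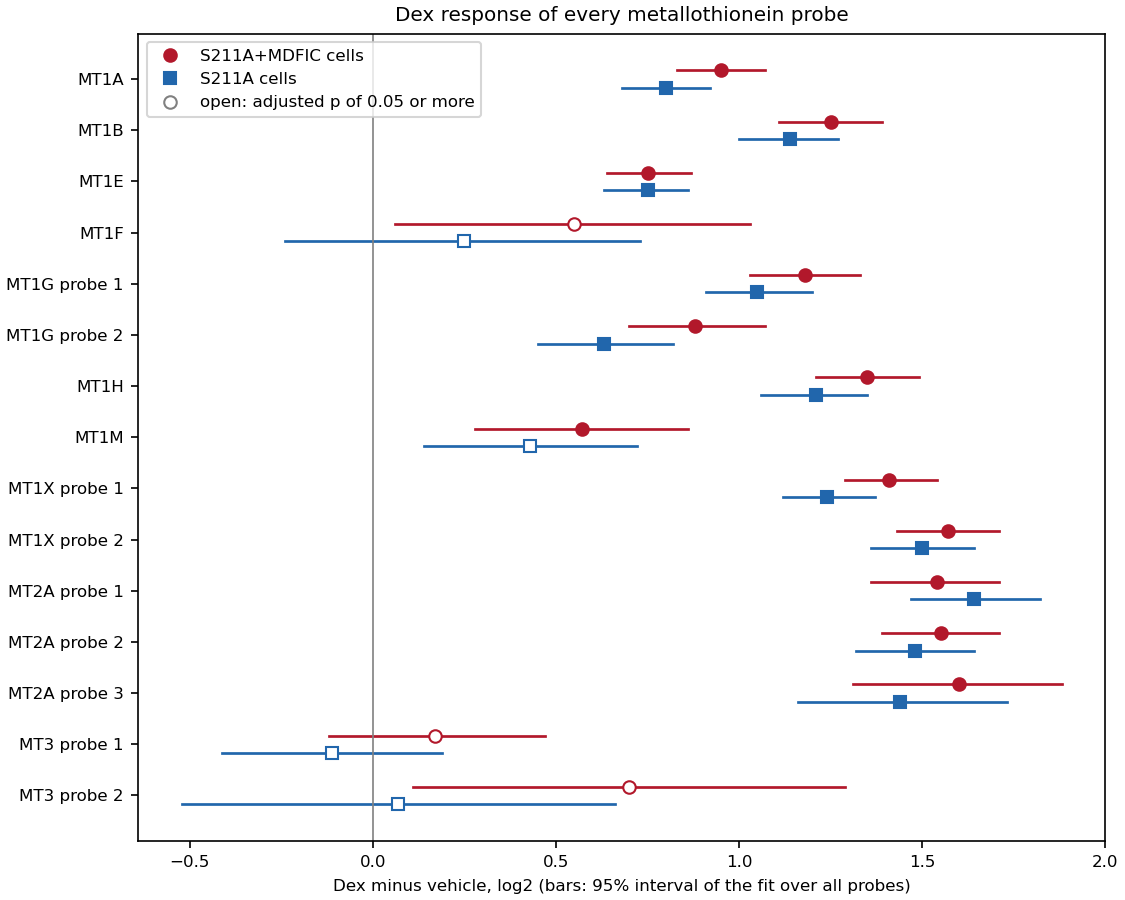
Dex minus vehicle (log2) for all 15 metallothionein probes in S211A+MDFIC cells (circles) and in S211A cells (squares), with 95% intervals from a limma fit in which each probe was tested on its own, n = 3 a group. Filled symbols mark the 12 probes in S211A+MDFIC cells and the 11 in S211A cells that passed, all of them higher with Dex. Over all probes in that fit, with only the first probe of each member counted, 5.86% were called higher in S211A+MDFIC cells and 4.11% in S211A cells. MT1F and both MT3 probes are open in both transfections.

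Over the first probes, Dex and vehicle groups lay apart, with Dex higher, for 9 of 10 members in S211A+MDFIC cells, against 18.7% of all accessions. In S211A cells this held for 8 of 10 members, against 14.5% of all accessions. The exceptions were MT3 in both transfections and MT1F in S211A cells. No member had its Dex arrays below its vehicle arrays, against 12.9% of all accessions in S211A+MDFIC cells and 11.4% in S211A cells.

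**Figure D3:**
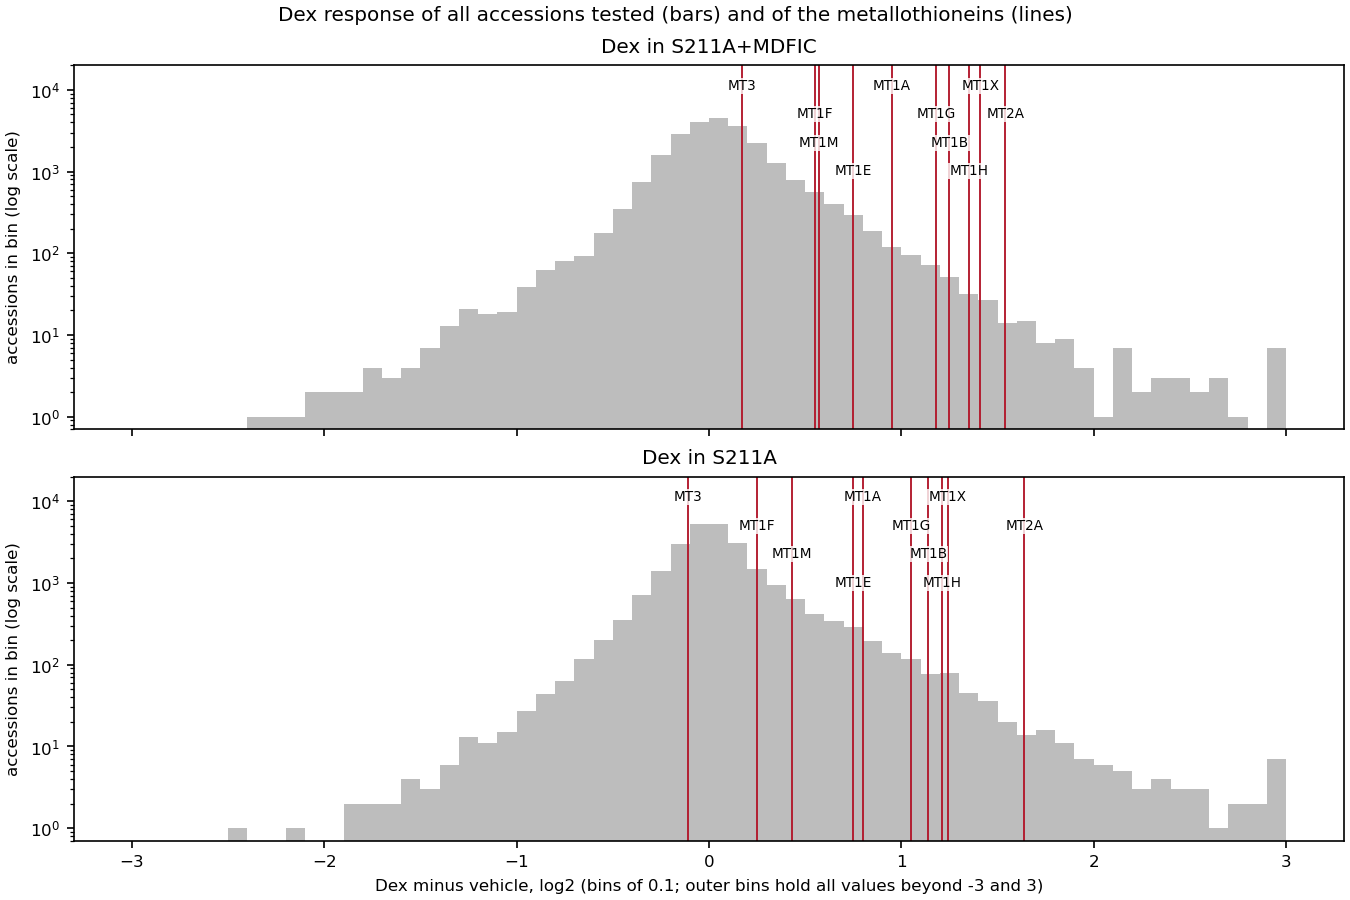
Dex minus vehicle (log2, bins of 0.1) of all 24586 accessions tested (bars, log scale) with the 10 metallothioneins as lines, in S211A+MDFIC cells (top) and S211A cells (bottom). MT3 lies near the peak of the bars, at 0.17 in S211A+MDFIC cells and -0.11 in S211A cells, and the other members lie to its right, up to MT2A at 1.54 and, in S211A cells, 1.64.

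The arrays lay on 3 slides of 4, and Dex and vehicle arrays of 1 transfection shared a slide only in part. Slide 3 held 3 Dex arrays and 1 vehicle array of S211A+MDFIC cells, and slide 1 held 1 Dex array and 3 vehicle arrays of S211A cells. Within those slides the change of MT2A was log2 1.53 in S211A+MDFIC cells and 1.73 in S211A cells. For MT1X it was 1.45 and, in S211A cells, 1.27. The other members that rose in both transfections also kept their sizes within a slide. MT1H had 1.36 in S211A+MDFIC cells and 1.20 in S211A cells, MT1B 1.25 and 1.21, MT1G 1.22 and 1.08, MT1A 0.89 and 0.74, and MT1E 0.83 and 0.74, each pair in that order of cells. MT1M had 0.75 within slide 3 and 0.51 within slide 1. MT1F had 0.43 within slide 3 and 0.07 within slide 1, and MT3 had 0 and -0.05. The median over all accessions within a slide was 0.038 on slide 3 and -0.016 on slide 1.

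**Figure D4:**
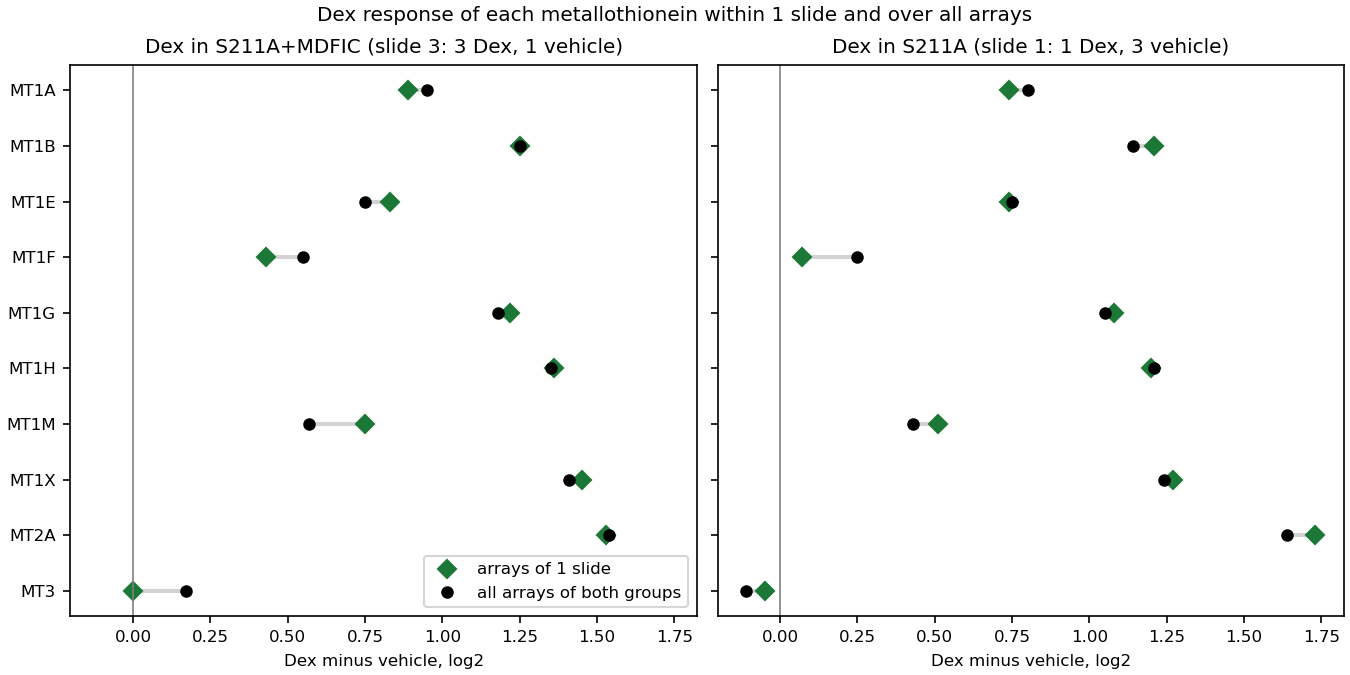
Dex minus vehicle (log2) of each metallothionein from the arrays of 1 slide (diamonds) and from all arrays of both groups (circles), in S211A+MDFIC cells on slide 3 (left) and in S211A cells on slide 1 (right). The diamonds have no error because 1 of the 2 groups has a single array on that slide. For MT2A the pairs are 1.53 and 1.54 on the left and 1.73 and 1.64 on the right.

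Replicates of a group were close for the members that rose in both transfections. Their SD ran from 0.016 to 0.16 in S211A+MDFIC cells given Dex and from 0.02 to 0.078 with vehicle. In S211A cells it ran from 0.0092 to 0.087 with Dex and from 0.013 to 0.088 with vehicle. All of these are far smaller than the changes of log2 0.75 to 1.54 in S211A+MDFIC cells and 0.75 to 1.64 in S211A cells. In 2 groups 1 array stood at an end for most members: S211A+MDFIC Dex replicate 1 was the highest of its group for 7 of 10 members, and S211A vehicle replicate 1 the lowest of its group for 7 of 10. In the S211A+MDFIC vehicle group and the S211A Dex group no array was the highest, or the lowest, for more than 4 of 10 members.

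The next question is what MDFIC did to the family with and without hormone. No member passed the test for MDFIC in either condition. With Dex, 0 of 10 members passed in limma, against 0.427% of all accessions, and 2 of 10 had an unadjusted p under 0.05, against 13.5%. With vehicle, 0 of 10 passed in limma, against 0.948% of all accessions. At an unadjusted p under 0.05, 7 members were lower with MDFIC under vehicle, against 9.51% of all accessions. No slide held S211A+MDFIC and S211A arrays under the same treatment, so for these comparisons slide and transfection can be separated only by a fit with slide as a term.

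Under Dex the levels of most members lay close together with and without MDFIC. On first probes the log2 differences of the 8 MT1 members ran from -0.18 to -0.01, all below 0 in this scaling, against 48.1% of all accessions. However, 6 of them turned positive without scaling between arrays. In that setting the median over all accessions was 0.12 and that of the 10 members 0.07. The second MT1G probe differed by 0.04 and the second MT1X probe by -0.06 in the main scaling. The median over the 10 members in the main scaling was -0.05, against 0.0072 over all accessions. For MT2A the first probe averaged 4.30 ± 0.16 in S211A+MDFIC cells and 4.43 ± 0.087 in S211A cells (SD, n = 3 each), a difference of -0.13 (95% interval -0.31 to 0.04, limma adjusted p = 0.462). MT1E averaged 4.62 ± 0.016 in S211A+MDFIC cells and 4.76 ± 0.013 in S211A cells (SD, n = 3 each), and these groups did not overlap. It was the 1 of 10 members apart and lower with MDFIC, near the share of 7.96% over all accessions. Its difference of -0.14 (95% interval -0.26 to -0.03) had an unadjusted p of 0.0189 and did not pass (limma adjusted p = 0.284).

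MT3 was the member with the largest difference under Dex. Its first probe averaged 2.24 ± 0.16 in S211A+MDFIC cells and 1.82 ± 0.098 in S211A cells (SD, n = 3 each), with no overlap. The difference was 0.42 (95% interval 0.12 to 0.72), with an unadjusted p of 0.0108, and it did not pass (limma adjusted p = 0.245). The second MT3 probe differed by 0.68 (95% interval 0.09 to 1.27, limma adjusted p = 0.34), with levels of -3.10, -3.86 and -3.31 in S211A+MDFIC cells and -4.59, -3.59 and -4.13 in S211A cells, which overlapped. With slide as a fixed block the difference of the first probe was 0.19 (limma adjusted p = 0.998). Among the vehicle arrays of S211A+MDFIC cells alone, the 1 on slide 3 was higher by 0.26 on the first probe than the mean of the 2 on slide 2. Among the Dex arrays of S211A cells, the mean of the 2 on slide 2 minus the 1 on slide 1 was -0.09. What slide contributed to the MT3 difference was not tested.

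Under vehicle the MT1 members were slightly lower with MDFIC, short of the threshold. All 8 had a negative log2 difference on first probes, from -0.33 to -0.15, against 52.7% of all accessions below 0. The lowest were those of the dim MT1M (-0.33) and MT1F (-0.31), and the 6 others ran from -0.22 to -0.15. Probes of near-identical members may read the same RNA, so these may not be 8 separate readings. The limma adjusted p-values of the 8 ran from 0.131 to 0.523. MT1B had the lowest of these p-values, with 3.51, 3.43 and 3.47 in S211A+MDFIC cells, against 3.64, 3.71 and 3.71 in S211A cells. Its groups lay apart, and its difference was -0.22 (95% interval -0.35 to -0.08, unadjusted p = 0.00604, limma adjusted p = 0.131). MT1X had 3.86, 3.86 and 3.81 in S211A+MDFIC cells, against 3.96, 4.08 and 4.06 in S211A cells, a difference of -0.19 (95% interval -0.31 to -0.07, limma adjusted p = 0.137). In all, 6 of 10 members had their S211A+MDFIC vehicle arrays below their S211A vehicle arrays, against 16.1% of all accessions.

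The first probe of MT2A and that of MT3 did not show this. MT2A averaged 2.76 ± 0.02 in S211A+MDFIC cells and 2.79 ± 0.013 in S211A cells given vehicle (SD, n = 3 each), a difference of -0.03 (95% interval -0.20 to 0.14, limma adjusted p = 0.896). Its second probe differed by -0.18 (limma adjusted p = 0.252) and the third probe by -0.20 (limma adjusted p = 0.497). MT3 averaged 2.07 ± 0.15 in S211A+MDFIC cells and 1.93 ± 0.25 in S211A cells (SD, n = 3 each), and these arrays overlapped. The median of the 10 members was -0.18, against -0.011 over all accessions. The S211A+MDFIC vehicle arrays had 76.2% to 77.3% of probes well above background and the S211A vehicle arrays, all on slide 1, 67.8% to 71.2%, and the part of this in the differences was not tested. Without scaling between arrays the median over all accessions shifted to 0.12 and that of the members to -0.05. The 8 MT1 differences then ran from -0.19 to -0.02, and MT2A turned to 0.10. With slide as a fixed block the MT1 differences ran from -0.63 to -0.11 (lowest limma adjusted p over the members 0.414). The -0.63 was that of the dim MT1F (SE 0.43), and the next lowest was -0.27 for MT1A. The median of the members was then -0.11, against -0.05 over all accessions.

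**Figure D5:**
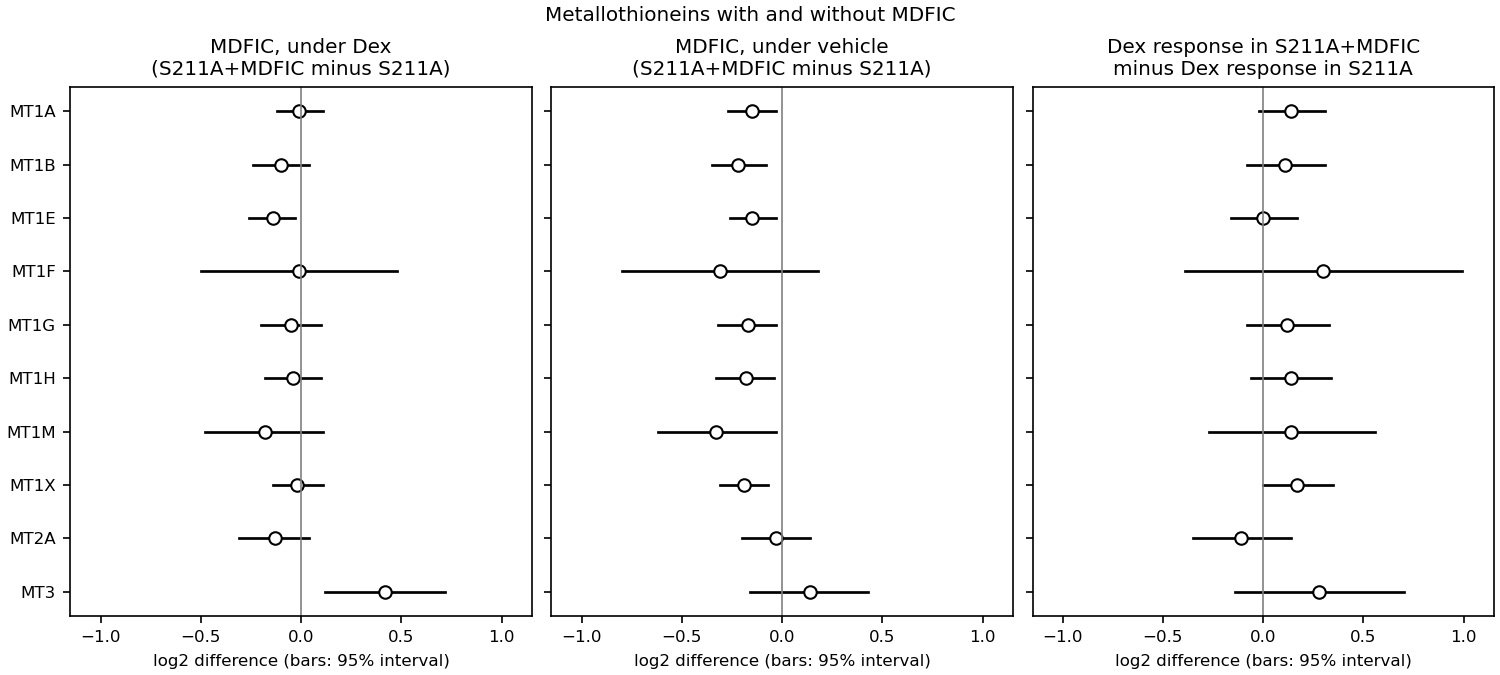
S211A+MDFIC minus S211A (log2, first probes) under Dex (left) and under vehicle (middle), and the Dex response in S211A+MDFIC cells minus that in S211A cells (right), with 95% intervals from limma, n = 3 a group. No point passed the adjusted threshold. Under vehicle the 8 MT1 points lie between -0.33 and -0.15, the lowest being those of the dim MT1M and MT1F. Under Dex they lie between -0.18 and -0.01. That direction turned for 6 of them without scaling between arrays, where the median over all accessions was 0.12.

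The last question is whether MDFIC changed the size of the Dex response. No member passed, with 0 of 10 in limma against 0.268% of all accessions, and 0 of 10 at an unadjusted p under 0.05, against 9.85%. For the 7 members that rose in both transfections, the difference between the responses of the first probes ran from log2 -0.11 for MT2A to 0.17 for MT1X. The 95% intervals of these 7 reached from -0.35 to 0.35, that is, ratios of the 2 fold changes from 0.785 to 1.27. The first MT1X probe had 0.17 (95% interval 0.00 to 0.35, unadjusted p = 0.0527, limma adjusted p = 0.509), and the second had 0.07 (-0.13 to 0.27). MT1G had 0.12 on its first probe (95% interval -0.08 to 0.33) and 0.25 on its second (-0.01 to 0.51, unadjusted p = 0.0596, limma adjusted p = 0.542). For MT1E the difference was 0.00 (95% interval -0.16 to 0.17). MT2A had -0.11 on its first probe (95% interval -0.35 to 0.14), but 0.07 on the second (-0.16 to 0.30) and 0.15 on the third (-0.25 to 0.56). The intervals of the dim members were wider, from -0.39 to 0.99 for MT1F and from -0.27 to 0.56 for MT1M. MT3 had 0.28 on its first probe (95% interval -0.14 to 0.70) and 0.64 on its second (-0.20 to 1.47). The median over the 10 members was 0.14, against 0.014 over all accessions. The S211A+MDFIC vehicle arrays and the S211A vehicle arrays enter both this difference and the comparison under vehicle, so the 2 results share their data.

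Most members had similar patterns over the 12 arrays. Set against MT1G, which had the highest mean signal, Pearson's r over the 12 arrays was 0.998 for MT1H, 0.997 for MT1B and 0.996 for MT1X. It was 0.991 for MT1A, 0.989 for MT1E and 0.987 for MT2A. The dim probes followed less closely, with 0.839 for MT1M and 0.637 for MT1F, and MT3 had -0.00685. The arrays fall into a Dex set and a vehicle set, and each coefficient is over both sets together. Probes of near-identical members may read the same RNA. Among the 20907 other accessions compared, MT1H, MT1B and MT1X were the 3 closest to MT1G. Many accessions outside the family followed MT1G more closely than the other members did: MT1A ranked 15, MT1E 19, MT2A 24, MT1M 852, MT1F 2376 and MT3 11741. The closest of them were NM_005985 with 0.995 and THC2733814 with 0.994, and both had log2 Dex changes of 1.10 in S211A+MDFIC cells and 0.94 in S211A cells. NM_001008540 came next with 0.994, and its log2 Dex changes were larger, 1.67 in S211A+MDFIC cells and 1.52 in S211A cells.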

How the data were processed

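The authors deposited spot intensity values on a linear scale from 12 one-colour arrays, with local background already subtracted by Agilent's Feature Extraction. The file headers give its version as 12.0.0.7 and the submitters' processing notes as 12. The series-wide table held the same processed intensity in 540180 of 540180 values (relative tolerance 1e-06). The scanner's processed signal was taken to log2, and each array's 75th percentile over its non-control spots was subtracted. Of 6 sets of spots or probes tried for this percentile, the one used was chosen after seeing the data, because its call counts matched those of an earlier analysis of the same arrays. Of 45015 spots, 1639 were controls and were left out, and 945 spot values marked as outliers over all arrays were set to missing. Spots of 1 probe were averaged. A probe was kept if some group had it well above background on its 3 arrays and every group had at least 2 values (31230 of 41000), and the brightest probe stood for its accession.

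Samples were grouped by title. limma 3.58.1 in R 4.3.3 estimated 4 group means from all 12 arrays together, with empirical Bayes variances, two-sided tests and Benjamini-Hochberg adjustment over 24586 accessions, in 5 comparisons called at 0.05. Intervals are at 95%. The fit was tested on simulated data. Figures were drawn with matplotlib 3.10.9. The members and lists were chosen with earlier results of these data known. The rule for named genes took all 10 members with every probe, and the accessions closest in pattern to the brightest member. Lists of metal-handling genes, glucocorticoid targets, transfected genes and cell type markers, and sequences and genome positions, were not analysed here, since the files used here pair accessions with no symbol, sequence or coordinate. No 2 arrays held identical values. Alternatives covered a normexp correction (offset 50, on the median spot signal), quantile, median or no scaling, other filters, outlier spots kept, other ways of combining probes, trend and robust variances, a block for slide (fixed, random) or for replicate number, only the compared groups, and each of the 12 arrays left out.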

Additional observations from a re-analysis of the deposited data

How the results depend on the processing

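The count of members called was 7 or 8 for Dex in S211A, 7 to 9 for Dex in S211A+MDFIC and 0 for the other comparisons under every alternative run. For Dex in S211A, 1.73% to 4.78% of all accessions tested were called higher under these alternatives. For Dex in S211A+MDFIC the share was 1.71% to 11.6%. The count of 9 came without S211A+MDFIC Dex replicate 2, the setting with 11.6%. MT1A, MT1B, MT1E, MT1G, MT1H, MT1X and MT2A were called higher with Dex in both transfections under 31 of 31 alternatives. The 5 other bases of the 75th percentile, added after seeing the data, gave 7 members for Dex in S211A, 8 for Dex in S211A+MDFIC and 0 elsewhere, with 1578 to 1597 and 2423 to 2450 calls over all accessions in the Dex comparisons. MT1M in S211A+MDFIC lost its call under quantile normalization (log2 0.46), median centring (0.50), no scaling (0.53), slide as a fixed block (0.75) and with only the groups compared (0.57). No member was called where its sign turned. MT1F for Dex in S211A was -0.04 with normexp. For the difference of the Dex responses, MT1E was -0.01 with normexp, quantile normalization, median centring, no scaling, slide as a random block and 4 of the 5 other bases of the 75th percentile, and ran from -0.03 to 0.04 with an array left out; MT2A was 0.04 with the mean of its probes. Under vehicle, MT2A was 0.10 without scaling and 0.10 with slide as a fixed block. For MDFIC under Dex without scaling, MT1A was 0.11, MT1B 0.01, MT1F 0.10, MT1G 0.06, MT1H 0.07 and MT1X 0.10. With quantile normalization MT1A was 0.02 and MT1X 0.00. With slide as a fixed block MT1G was 0.02, MT1X 0.05 and MT1M 0.12. With an array left out, MT1A ran from -0.05 to 0.02, MT1F from -0.15 to 0.20 and MT1X from -0.05 to 0.03. The cause was not tested. The correlation of deviations from group means ran from -0.259 to 0.247 for same-numbered arrays and from -0.21 to 0.311 for differently numbered arrays. These overlapping ranges do not settle whether replicate numbers pair the arrays. With the replicate block, 8 members were called for Dex in S211A (MT1M added, log2 0.43, limma adjusted p = 0.0311), against 3.47% of all accessions called higher. For Dex in S211A+MDFIC 8 were called, against 5.43%, and 0 in the other comparisons. Of all accessions called for Dex in S211A, 1059 rose and 540 fell, against 697 and 654 with median centring, and for Dex in S211A+MDFIC 1539 and 918, against 969 and 872. Signal near background limits MT1F, MT1M, the second probe of MT3 and the third probe of MT2A.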
